A study of Homo sapiens with 18 samples.

Results

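The genes described here are 8 effectors of the type I interferon response that act on nucleotides, RNA, translation or membranes: RSAD2 (viperin), CMPK2, ISG20, SAMD9, SAMD9L, PLSCR1, EPSTI1 and PNPT1. They were chosen by name, and matched by Ensembl ID to the expression table, which holds 16472 genes. A row was found for 7 of the 8, and all 7 passed the filter that left 13280 genes for testing. The expression of EPSTI1 was not analysed here, and only its promoter was searched. RNA was sequenced from NIKS cells, an established immortalized human keratinocyte line grown over irradiated mouse J2/3T3 fibroblasts. The SP100 genotype was WT or KO, and cells of each genotype were either left untreated (0 h) or exposed for 12 or 48 h to human interferon alpha 2a, at 25 ng/mL. Each of the 6 groups holds 3 libraries that are labelled biological replicates, 18 in all. Every WT library carries the line name Vec2 and every KO library the name KO5, and SP100 loss cannot be told apart from whatever else separates these lines. No untreated library at 12 or 48 h was analysed here, and the effects of interferon and of longer culture cannot be told apart either.

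Type I interferon binds a receptor on the cell surface, and the signal ends at interferon-stimulated response elements near the genes that are switched on. The proteins these genes encode act at different steps of viral growth. Viperin is a radical SAM enzyme that turns CTP into ddhCTP, a chain terminator of some viral RNA polymerases, and CMPK2 is a mitochondrial kinase that supplies CTP and other nucleotides. ISG20 is an exonuclease that digests single-stranded RNA, and PNPT1 encodes the polynucleotide phosphorylase that degrades RNA in mitochondria. SAMD9 and SAMD9L are closely related cytosolic proteins that repress translation. PLSCR1 is a phospholipid scramblase that restricts entry of several viruses, and EPSTI1 was first described as a gene induced in epithelial cells by contact with stroma.

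The promoters of the 8 genes are shown first, because every one of the 7 measured genes rose with interferon. RefSeq (GRCh38.p14) lists 12 transcript starts for the 8 genes, and each was searched from 250 bases before to 50 bases after the start, on both strands. The response element core (GAAA, any 2 bases, GAAA) occurred near 5 of the 8 genes (RSAD2, ISG20, SAMD9, PLSCR1 and EPSTI1), against 4.38% of 27305 genes. A related element (GGAA, any 2 bases, GAAA) was added after the sequences had been seen. It occurred near 4 of the 8 (RSAD2, CMPK2, PNPT1 and PLSCR1), of which RSAD2 and CMPK2 share matches, and near 3.47% of all genes. Because these promoters were seen first, that count cannot be tested against the share over all genes. The gamma-activated sequence TTCNNNGAA occurred near 3 of the 8 (PNPT1, PLSCR1 and EPSTI1), against 9.38% of all genes, and overlapped the response element core only in EPSTI1. SAMD9L held none of these 3 motifs in its window. Each 30-base window below is written 5′ to 3′ on the strand of its gene, with the match in capitals.
RSAD2, downstream start, core on the opposite strand, chr2:6877622-6877651 (+): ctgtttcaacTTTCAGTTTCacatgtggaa
RSAD2, upstream start, related element, chr2:6865722-6865751 (+): gccccgcctcGGAAACGAAAcctggcggga
RSAD2, upstream start, related element, chr2:6865756-6865785 (+): ggcgccggcgGGAAACGAAAcccggaggga
RSAD2, upstream start, related element, chr2:6865790-6865819 (+): ggcgccagcgGGAAACGAAAgcgaagcgtt
RSAD2, upstream start, related element, chr2:6865814-6865843 (+): agcgttgcggGGAAACGAAAgccggaggcc
ISG20, core, chr15:88638937-88638966 (+): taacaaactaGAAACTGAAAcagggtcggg
SAMD9, core, chr7:93118096-93118125 (-): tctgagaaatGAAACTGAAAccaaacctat
PLSCR1, core, chr3:146544667-146544696 (-): cgggaaccggGAAAAGGAAAccgtgttgtg
PLSCR1, related element, chr3:146544634-146544663 (-): gtaagattcaGGAAACGAAAccaggagccg
PNPT1, related element, chr2:55693891-55693920 (-): cgggcaccgcGGAAACGAAActccatcagg

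RSAD2 and CMPK2 lie head to head on chromosome 2, RSAD2 on the plus strand and CMPK2 on the minus strand. The upstream start of RSAD2 is 22 bases from the nearest CMPK2 start, and the downstream start lies 11892 bases farther on. All 4 related elements of the upstream RSAD2 start carry the same 10 letters, at -153, -119, -85 and -61 bases from that start. The last 2 of them are the same bases as the 2 matches of CMPK2, at 11 and -14 bases from its start at 6865819. PLSCR1 holds all 3 motifs, with the core at -79 and the related element at -46 bases from its first start. These matches describe letters in a window; binding was not measured.

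**Figure D1:**
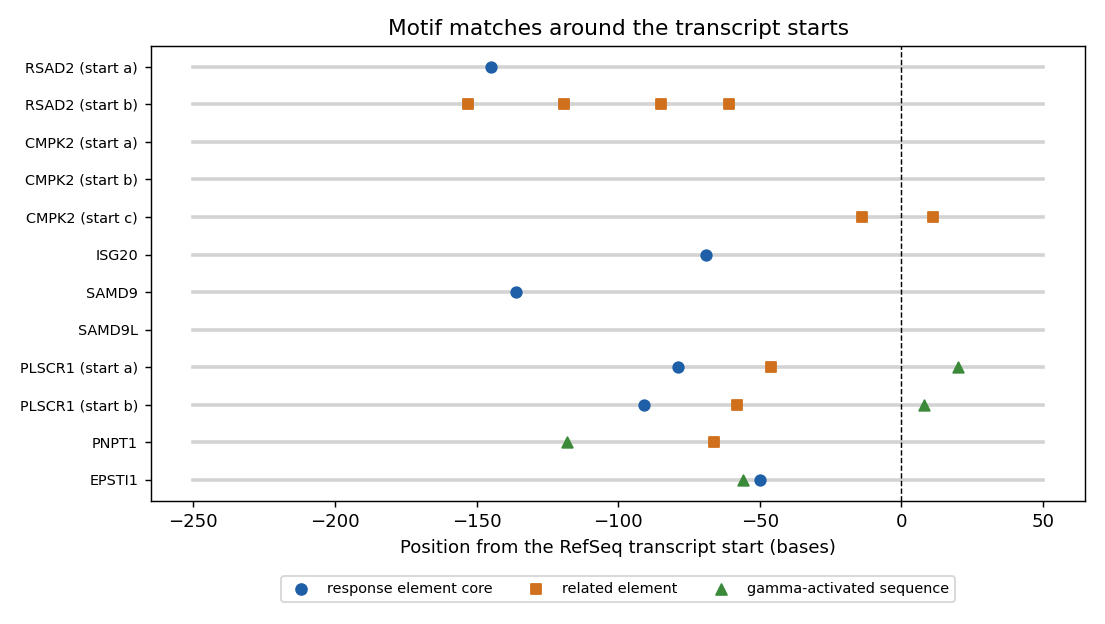
Positions of the 3 motifs in the promoter windows of the 8 genes. The x axis is the distance in bases from each RefSeq transcript start (dashed line), each grey bar is the window searched, and symbols mark where a match begins (circles, response element core; squares, related element; triangles, gamma-activated sequence); for RSAD2, start a is the downstream and start b the upstream one. The upstream RSAD2 start has 4 related elements, and SAMD9L and starts a and b of CMPK2 have no match.

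SP100 itself, the targeted gene, was lower in every KO library than in every WT library at the same time. SP100 is itself induced by interferon, and its RNA remained present in KO. At 0 h its level was 30.14, 31.91 and 27.9 RPKM (read density per gene length and library total) in WT and 15.97, 14.22 and 15.21 RPKM in KO. The difference on the log2(RPKM + 1) scale was -0.94 without interferon, -0.83 after 12 h and -1.08 after 48 h. After 12 h the KO libraries held 93.18, 86.5 and 87.53 RPKM of SP100, 5.89-fold their untreated mean and above the untreated WT libraries, and the WT libraries held 155.5, 172.07 and 150.82 RPKM. RNA level does not show whether protein is made, and the deleted part was not located here. All 8 basal keratinocyte markers were present, with a summed level of 15243 to 18049 RPKM per library. Of the other cell types, 5 of 7 differentiation markers (summed 49.1 to 73.0 RPKM), 2 of 6 fibroblast markers (1.40 to 3.18), 2 of 6 leukocyte markers (1.49 to 6.78) and 1 of 4 melanocyte markers (0.37 to 1.57) had a row. The leukocyte sum ran from 4.28 to 6.08 RPKM in untreated WT, 2.42 to 3.59 at 12 h and 2.06 to 3.84 at 48 h, and its part in the results was not tested. Most of that sum was CD14, whose WT mean was 5.09 RPKM before interferon and 2.40 RPKM at 12 h, while ITGAM averaged 0.217 and 0.653 RPKM. Keratinocyte markers also differed between the genotypes: COL17A1 (-0.20) and LAMB3 (-0.37) were lower in KO at 0 h, as was SPRR1A (-0.85), and at 48 h COL17A1 was lower (-0.17) and KRTDAP higher (0.70). Read totals are unknown, and the lowest values gave relative depths within a 1.48-fold range. In these bulk samples, fewer responding cells and less RNA per cell cannot be told apart.

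The first comparison asked how far interferon raised each gene. All 7 measured effectors were higher at 12 h in both genotypes, and the treated and untreated libraries did not overlap for any of them. The share of all genes without overlap was not counted, so the separation only describes the 7. Among all genes tested, 15.1% were called higher at 12 h in WT and 16.0% in KO, at a Benjamini-Hochberg adjusted p under 0.05 in limma. A call with a rise of at least 1 on the log2 scale was met by 7 of 7 effectors in each genotype, against 1.64% of all genes in WT and 1.75% in KO. Over the 7 genes the median log2 change was 3.81 in WT and 3.95 in KO, while over all genes tested it was -0.09 in both. Since log2(RPKM + 1) was used, the change of genes near 0 is understated.

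RSAD2 showed the widest range. Untreated WT libraries held 0.52, 0.15 and 0.04 RPKM, while the untreated KO libraries were listed at 0, 0 and 0.02 RPKM. After 12 h it reached 79.13, 83.8 and 83.02 RPKM in WT and 98.85, 94.61 and 101.18 RPKM in KO. Viperin RNA was thus near the floor of the table in all untreated libraries and among the more abundant of the 7 at 12 h. The log2 change was 6.09 (SE 0.0945, adjusted p = 1.32e-17) in WT and 6.62 (adjusted p = 4.31e-18) in KO. These ranked 11 and 13 from the highest among the 13280 genes tested.

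CMPK2, its neighbour, was also nearly silent without interferon, at 0, 0.03 and 0.07 RPKM in WT and at 0, 0.04 and 0 RPKM in KO. It rose to 20.44, 19.08 and 18.32 RPKM in WT at 12 h, and to 20.4, 15.76 and 17.85 RPKM in KO. No untreated library came near any treated one. The log2 change was 4.29 (SE 0.0816) in WT and 4.22 in KO, with adjusted p-values of 2.21e-16 and 2.49e-16. The gene models of RSAD2 and CMPK2 overlap by 830 bases on opposite strands in GENCODE. The library kit keeps strand, but the strand setting of the counting is not given in the sources used here, so reads in that overlap are uncertain.

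For ISG20, the RNA exonuclease, untreated levels were 4.1, 2.57 and 2.64 RPKM in WT and 2.11, 2.22 and 3.31 RPKM in KO. At 12 h they were 57.48, 51.97 and 57.87 RPKM in WT and 48.75, 50.11 and 61.15 RPKM in KO. The mean RPKM was 18.0-fold higher in WT and 20.9-fold higher in KO, and the log2 change was 3.81 (SE 0.140, adjusted p = 2.00e-12) and 3.95. PNPT1, the mitochondrial RNA-degrading enzyme, started at 31.7, 29.46 and 30.36 RPKM in WT and 32.01, 33.37 and 31.7 RPKM in KO. It reached 98.78, 114.69 and 102.81 RPKM in WT at 12 h and 120.31, 112.43 and 117.47 RPKM in KO. Of the 7 genes PNPT1 had the smallest rise, 3.46-fold in WT and 3.61-fold in KO, with log2 changes of 1.75 (SE 0.0499, adjusted p = 5.32e-14) and 1.82.

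SAMD9 and SAMD9L, the paired translation repressors on chromosome 7, differed in their untreated level. Without interferon, SAMD9 was present at 5.47, 4.97 and 5.04 RPKM in WT libraries and at 4.93, 5.27 and 5.12 RPKM in KO libraries. SAMD9L was below 1 RPKM in all 6 untreated libraries, at 0.37, 0.3 and 0.15 RPKM in WT and 0.23, 0.31 and 0.4 RPKM in KO. The untreated libraries of the pair did not overlap. At 12 h SAMD9 was at 63.96, 65.06 and 60.36 RPKM in WT and at 67.73, 62.25 and 63.61 RPKM in KO. SAMD9L was at 16.7, 18.76 and 16.26 RPKM in WT and at 21.54, 18.7 and 20.07 RPKM in KO. In mean RPKM, SAMD9 was 12.2-fold higher at 12 h in WT and 12.6-fold in KO. The corresponding log2 changes were 3.38 (SE 0.0501, adjusted p = 7.40e-18) and 3.42 for SAMD9, and 3.84 (SE 0.0843, adjusted p = 1.42e-15) and 4.01 for SAMD9L. Being close relatives, they can share reads, and how such reads were assigned is uncertain.

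PLSCR1, the scramblase, was the most abundant effector in every treated library. Untreated cells held 31.56, 32.48 and 30.89 RPKM in WT and 31.74, 34.7 and 32.24 RPKM in KO. At 12 h the levels were 311.75, 322.71 and 308.94 RPKM in WT and 346.14, 314.82 and 339.16 RPKM in KO. The mean was 9.94-fold higher in WT and 10.1-fold higher in KO, with a log2 change of 3.27 (SE 0.0432, adjusted p = 1.88e-18) and 3.30.

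**Figure D2:**
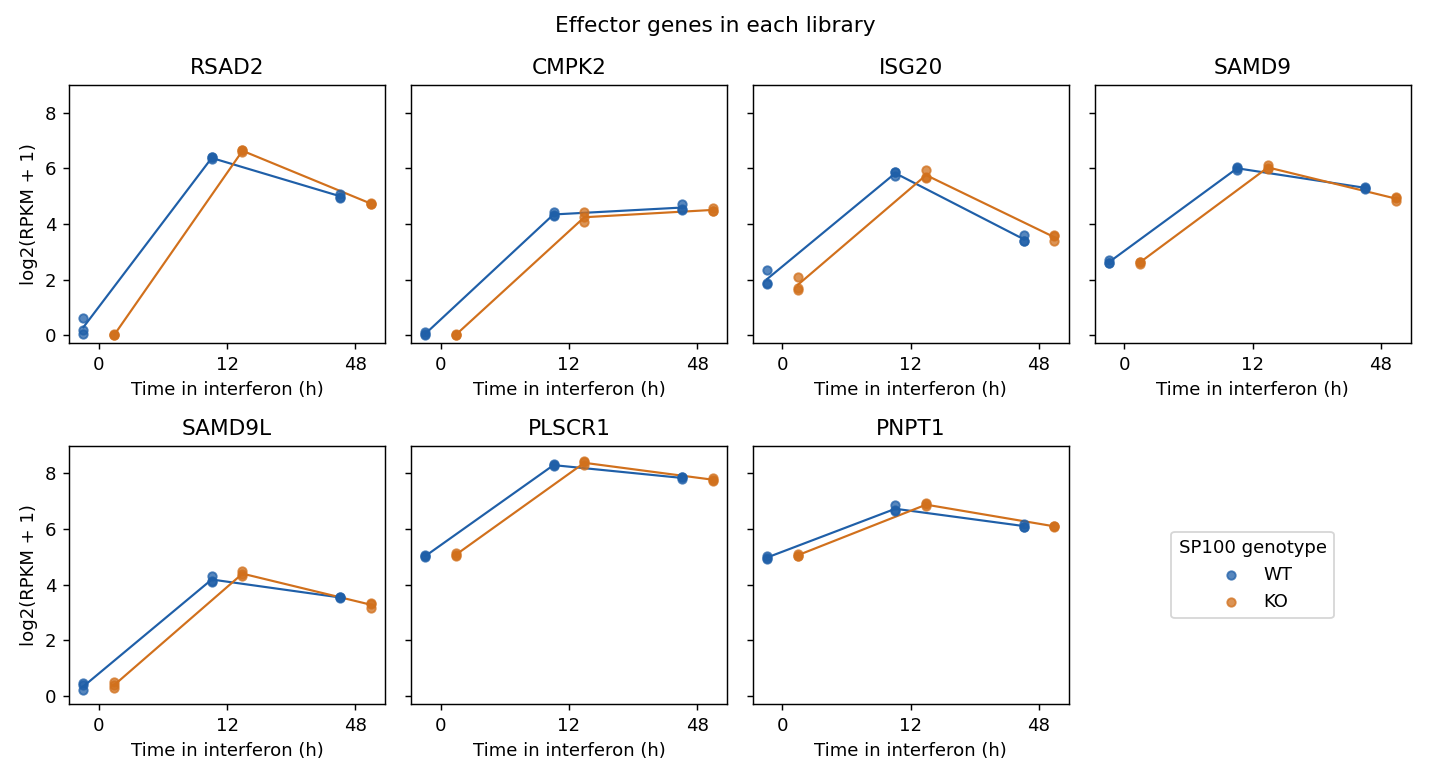
Level of the 7 measured effectors in each library, as log2(RPKM + 1), against hours in interferon (spaced evenly, not to scale) in WT (blue) and KO (orange). Points are libraries, 3 per group, drawn side by side for the genotypes, and lines join group means. Each gene rises by 12 h, and 6 of the 7 are lower at 48 h than at 12 h, while CMPK2 is not.

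The order of the levels per length changed with time. Without interferon, PLSCR1 (mean 31.6 RPKM in WT) and PNPT1 (30.5) were highest and their WT libraries overlapped. SAMD9 and ISG20 followed, while SAMD9L, RSAD2 and CMPK2 were all under 1 RPKM. In WT at 12 h the order by mean RPKM was PLSCR1 at 314, PNPT1 at 105, RSAD2 at 82.0, SAMD9 at 63.1, ISG20 at 55.8, CMPK2 at 19.3 and SAMD9L at 17.2. Of these neighbours, CMPK2 and SAMD9L overlapped between libraries and the others did not. By 48 h in WT the order was PLSCR1 at 228 RPKM, PNPT1 at 68.1, SAMD9 at 38.3, RSAD2 at 31.0, CMPK2 at 23.1, SAMD9L at 10.6 and ISG20 at 9.98. Here SAMD9L and ISG20 overlapped and no other neighbours did. RSAD2 had passed below SAMD9, and ISG20 had moved from the fifth place in WT to the last. In KO at 48 h ISG20 (9.52 to 11.15 RPKM) lay above SAMD9L (7.99 to 9.26 RPKM) without overlap.

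At 48 h all 7 effectors were still called higher than in untreated cells in both genotypes, against 6.52% of all genes in WT and 5.90% in KO. With a rise of at least 1 on the log2 scale the background was 1.04% in WT and 0.994% in KO, and 7 of 7 effectors met it. The log2 changes in WT were 4.71 for RSAD2, 4.54 for CMPK2, 3.20 for SAMD9L, 2.81 for PLSCR1, 2.67 for SAMD9, 1.44 for ISG20 and 1.13 for PNPT1. In KO they were 4.72, 4.49, 2.89, 2.70, 2.30, 1.71 and 1.04 in the same order of genes. The comparisons at 12 and 48 h share the untreated libraries.

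The next comparison asked how much of the 12 h level was held at 48 h. In both genotypes 6 of the 7 effectors fell and CMPK2 alone rose. All 7 passed the test in each genotype, against 35.9% of all genes in WT and 41.7% in KO in either direction. Lower calls made up 11.3% of all genes in WT and 14.0% in KO, and higher calls 24.6% and 27.7%. The split of all calls depended on scaling. In WT it was 3267 higher and 1505 lower genes as deposited and 2135 higher and 2418 lower after median-of-ratios scaling. In KO it was 3678 and 1860 as deposited and 2530 and 2809 after scaling. At 12 h against 0 h the corresponding split was 2005 higher and 3959 lower in WT (2895 and 2712 after scaling), and 2123 and 4362 in KO (3155 and 3040).

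ISG20 lost the most. At 48 h it was at 11.04, 9.45 and 9.46 RPKM in WT and at 10.9, 11.15 and 9.52 RPKM in KO, which is 17.9% of the 12 h mean in WT and 19.7% in KO. The log2 change from 12 to 48 h was -2.37 (SE 0.140, adjusted p = 7.00e-09) in WT and -2.23 (adjusted p = 1.04e-08) in KO. These ranked 3 and 5 from the lowest of all 13280 genes. RSAD2 came next, at 29.74, 32.59 and 30.61 RPKM in WT and 25.4, 25.53 and 25.85 RPKM in KO at 48 h. It held 37.8% of its 12 h mean in WT and 26.1% in KO, with log2 changes of -1.38 (SE 0.0945, adjusted p = 3.50e-08) and -1.90 (adjusted p = 7.20e-10).

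The SAMD9 pair held more than RSAD2 did. At 48 h SAMD9 was at 39.25, 37.05 and 38.65 RPKM in WT and at 29.58, 27.6 and 30 RPKM in KO. SAMD9L was at 10.74, 10.67 and 10.52 RPKM in WT and at 8.94, 7.99 and 9.26 RPKM in KO. Both genes were lower in every KO library than in every WT library at this time. SAMD9 held 60.7% of its 12 h mean in WT and 45.0% in KO, and SAMD9L held 61.7% and 43.4%. The log2 changes from 12 h were -0.71 and -1.12 for SAMD9 and -0.65 and -1.12 for SAMD9L, in WT and KO.

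PNPT1 stood at 71.03, 66.17 and 67.09 RPKM in WT and at 67.67, 66.64 and 68.26 RPKM in KO at 48 h, 64.6% and 57.8% of the 12 h means. PLSCR1 stood at 232.55, 230.77 and 221.73 RPKM in WT and at 213.43, 214.17 and 227.78 RPKM in KO, 72.6% and 65.5% of the 12 h means. Of the 6 genes that fell, PLSCR1 held the most in both genotypes. Its log2 change was -0.46 in WT and -0.61 in KO.

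CMPK2 moved the other way. It was at 22.43, 25.08 and 21.82 RPKM in WT and at 22.83, 21.04 and 21.24 RPKM in KO at 48 h, 120% and 121% of the 12 h means. All 6 libraries at 48 h were above all 6 at 12 h. The log2 change was 0.25 (SE 0.0816, adjusted p = 0.0261) in WT and 0.26 (adjusted p = 0.0169) in KO. With median-of-ratios scaling the call was lost, at 0.16 (adjusted p = 0.136) in WT and 0.17 (adjusted p = 0.103) in KO. It was also lost with a pseudocount of 0.1 (adjusted p = 0.252 and 0.210). Leaving out WT 12 h replicate 2 or 3 or WT 48 h replicate 2 (adjusted p = 0.0652, 0.0962 and 0.125), or KO 12 h replicate 2 or KO 48 h replicate 1 (0.0989 and 0.0680), ended it as well, as did a fit on the 6 KO libraries compared (0.0637).

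**Figure D3:**
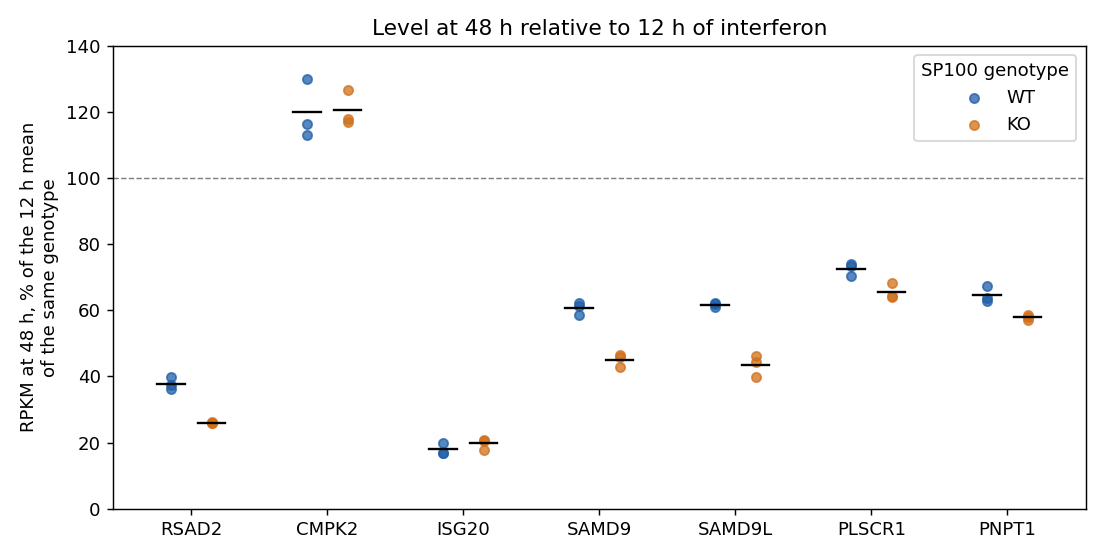
Level at 48 h as a percent of the mean 12 h level of the same genotype, for each of the 7 effectors. Points are the 3 libraries at 48 h, WT in blue and KO in orange, and black bars are their means; the dashed line marks the 12 h level. ISG20 lies near 20%, RSAD2 at 37.8% in WT and 26.1% in KO, and CMPK2 above 100% in all 6 libraries.

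RSAD2 and CMPK2, whose nearest starts are 22 bases apart, did not keep a fixed ratio over time. Which of their starts was used was not measured. RSAD2 was 3.87, 4.39 and 4.53 times the RPKM of CMPK2 in the WT libraries at 12 h, and 1.34 ± 0.0537 times (SD, n = 3) at 48 h. In KO the ratio was 4.85, 6.00 and 5.67 at 12 h and 1.11, 1.21 and 1.22 at 48 h. The ratios at 12 and 48 h did not overlap in either genotype. On the log2(RPKM + 1) scale the ratio fell by 1.89 from 12 to 48 h over the 12 treated libraries, by 1.62 in WT and by 2.16 in KO. The exact permutation test within genotype gave a two-sided p of 0.005, the smallest that its 400 assignments allow, and 0.01 after adjustment over the 4 ratio tests. WT and KO ratios did not overlap at either time, but in opposite directions: KO minus WT was 0.36 at 12 h and -0.18 at 48 h on the log2 scale. The test pooled over both times averages these to 0.09 (exact permutation p = 0.43, adjusted 0.43), and so does not bear on either time. With 3 libraries against 3, neither time was tested alone.

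The ratio within the SAMD9 pair was compared in the same way. SAMD9L was 0.261, 0.288 and 0.269 times the RPKM of SAMD9 in WT at 12 h and 0.274, 0.288 and 0.272 times at 48 h. In KO it was 0.318, 0.300 and 0.316 times at 12 h and 0.302, 0.289 and 0.309 times at 48 h. Every KO library was above every WT library of the same time, at 48 h by a narrow margin. The difference KO minus WT was 0.15 on the log2 scale (0.18 at 12 h and 0.13 at 48 h), with an exact permutation p of 0.005 within time, the smallest possible, and 0.01 after adjustment. The change from 12 to 48 h was 0.03 (exact permutation p = 0.28, adjusted 0.373).

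**Figure D4:**
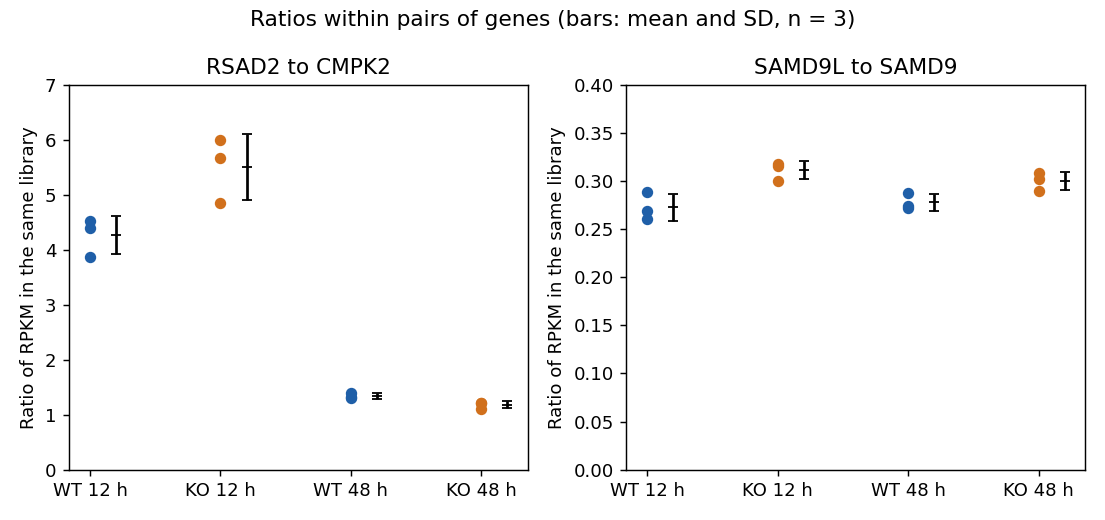
Ratio of RPKM within 2 pairs of effectors in the 12 interferon-treated libraries, RSAD2 to CMPK2 on the left and SAMD9L to SAMD9 on the right. Points are libraries (WT blue, KO orange) and the bars beside them are the mean and SD (n = 3). In WT the mean RSAD2 to CMPK2 ratio is 4.27 at 12 h and 1.34 at 48 h, and in KO it is 5.51 and 1.18, and the SAMD9L to SAMD9 ratio is higher in KO at both times.

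The genotypes were then compared at each time, which is the question the SP100 knockout poses. At 0 h 0 of 7 were called, against 4.89% of all genes; the split of all calls was 375 higher and 275 lower in KO (275 and 308 after scaling). At 12 h 0 of 7 were called, against 3.62%. At 48 h 1 of 7 was called, SAMD9, against 4.19%. These counts are near the shares over all genes and say nothing particular about the 7. The share of all genes whose libraries did not overlap between genotypes was not counted. Separations of WT and KO libraries thus only describe the genes named. At an unadjusted p under 0.05, 2400 of 13280 genes passed at 0 h and 2256 at 12 h.

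SAMD9 did not pass at 0 h (log2 difference KO minus WT -0.01, 95% interval -0.12 to 0.09) or at 12 h (0.03, interval -0.08 to 0.14), and its libraries overlapped. At 48 h the KO mean was 75.8% of the WT mean, 29.1 against 38.3 RPKM. The log2 difference was -0.39 (SE 0.0501, adjusted p = 0.000165), lower in 3 of 3 KO libraries. Of the keratinocyte markers, KRTDAP (0.70, adjusted p = 0.00481) and COL17A1 (-0.17, adjusted p = 0.0214) were also called at 48 h, and their part in the SAMD9 difference was not tested. Over the 26 alternative settings run for it the adjusted p lay between 0.000125 and 0.0137. The test of whether the genotypes differed more at 48 h than at 0 h gave -0.38 (adjusted p = 0.0791), and more at 48 h than at 12 h gave -0.42 (adjusted p = 0.107). Neither passed the threshold. SAMD9L showed the same order at 48 h, with KO at 82.0% of WT and no overlap, but its difference of -0.26 did not pass (adjusted p = 0.107). At 12 h SAMD9L was 0.21 higher in KO (adjusted p = 0.209), with overlapping libraries.

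RSAD2 was the gene whose libraries separated by genotype at all 3 times, though no difference passed. At 0 h the margin lay near the floor, with 0.02 RPKM in the highest KO library and 0.04 RPKM in the lowest WT library. The KO libraries were lower at 0 h, higher at 12 h and lower at 48 h. The log2 differences were -0.28 (adjusted p = 0.118), 0.26 (adjusted p = 0.166) and -0.27 (adjusted p = 0.151), and the KO mean was 120% of WT at 12 h and 82.6% at 48 h. WT 0 h replicate 1, at 0.52 RPKM, decides much of this. Without it the difference at 0 h was -0.12 and the differences at 12 and 48 h passed (adjusted p = 0.00963 and 0.00676). Without WT 0 h replicate 3 the difference at 0 h passed at -0.39 (adjusted p = 0.0190). With a pseudocount of 0.1 it passed at -1.39 (adjusted p = 0.0192). A fit on the 12 treated libraries alone, chosen after the data were seen, also called RSAD2 at 12 h (adjusted p = 0.00805) and 48 h (0.00532). The steeper fall of RSAD2 in KO from 12 to 48 h, -0.52 on the log2 scale, had an adjusted p of 0.433 over all libraries, 0.0364 in the treated libraries alone and 0.0430 without WT 0 h replicate 1.

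The other effectors overlapped between genotypes at every time. CMPK2 differed by -0.03 at 0 h, -0.10 at 12 h (95% interval -0.27 to 0.07) and -0.09 at 48 h (interval -0.26 to 0.09). ISG20 differed by -0.21, -0.07 and 0.07, with a 95% interval of -0.37 to 0.23 at 12 h. PLSCR1 differed by 0.05, 0.08 and -0.06, the last with an interval of -0.16 to 0.03. PNPT1 differed by 0.08 at 0 h, 0.15 at 12 h (adjusted p = 0.130) and -0.01 at 48 h. The 12 h difference of PNPT1 was called only without WT 12 h replicate 2, at 0.21 (adjusted p = 0.0189), among the libraries left out in turn. These intervals bound the differences; they do not show that the genotypes act alike.

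**Figure D5:**
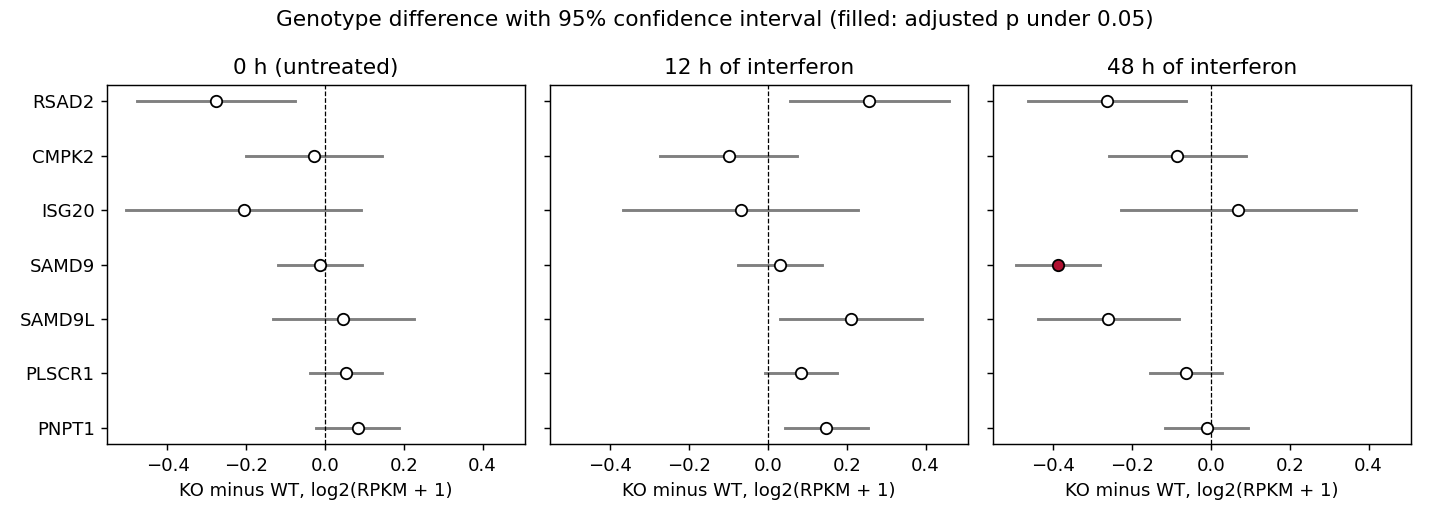
Difference KO minus WT in log2(RPKM + 1) for the 7 effectors at 0, 12 and 48 h, with 95% limma intervals from the fit over 18 libraries. The dashed line is 0, and a filled point passed the test. SAMD9 at 48 h lies at -0.39, and RSAD2 lies below 0 at 0 and 48 h and above 0 at 12 h.

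Direct tests of whether interferon acted differently by genotype called 0 of 7 effectors at 12 h (against 0.0753% of all genes), 0 of 7 at 48 h (0.0828%) and 0 of 7 for the change from 12 to 48 h (0% of all genes). At an unadjusted p under 0.05, limma gave 764, 826 and 904 of the 13280 genes in these 3 tests. The largest difference in the 12 h response was that of RSAD2, 0.54 more in KO (adjusted p = 0.344), and its untreated level enters that value. From 12 to 48 h, 5 of the 7 had a more negative change in KO than in WT. Those 5 were RSAD2 at -0.52, SAMD9L at -0.47, SAMD9 at -0.42, PNPT1 at -0.16 and PLSCR1 at -0.15, and none passed. Over all genes the median of this difference was -0.00012, and the share more negative in KO was not counted. The count of 5 is thus not read as a result about the effectors.

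Other genes of the same functions were read from lists, each described by its counts beside the shares over all genes. At 12 h 15.1% of all genes were called higher and 29.8% lower in WT (16.0% and 32.8% in KO), and the median change over all genes in WT was -0.09. The list of RNA and translation effectors outside the 8 genes had 22 tested members. At 12 h in WT 21 of them rose, and KHNYN, a cofactor of the antiviral protein ZC3HAV1, was called lower. KHNYN changed by -0.25 (adjusted p = 0.00913), and by -0.15 after median-of-ratios scaling, where it was not called (adjusted p = 0.0834). In KO 20 rose and 1 was lower. The median change in WT was 2.89, against 3.81 for the 7 genes described here. The largest were IFIT1, which binds foreign RNA caps, at 6.89, OAS1, which makes the activator of RNase L, at 6.33, and IFIT3, the partner of IFIT1, at 5.91. From 12 to 48 h 19 of the 22 fell in WT (19 after scaling), against 11.3% of all genes as deposited. Their median was -0.51, and that over all genes was 0.07.

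In KO at 0 h, 6 of the 22 were called lower (IFIT1, IFIT2, IFIT3, DDX60, HELZ2 and ZNFX1) and OAS2 higher, where 4.89% of all genes were called in either direction. At 12 h limma called 0 of the 22, and at 48 h IFIT1 alone was called, lower in KO. The interferon response at 12 h was called larger in KO for IFIT1 (by 1.45, adjusted p = 1.34e-05), IFIT2 and IFIT3, 3 of the 10 genes called in that test. At 48 h it was called larger in KO for DDX60, IFIT1, IFIT2 and IFIT3 and smaller for OAS2, 5 of the 11 genes called. These tests share the untreated libraries in which the same genes differed. Without interferon, IFIT1 averaged 4.32 ± 0.723 RPKM (SD, n = 3) in WT against 0.953 ± 0.231 RPKM in KO, a log2 difference of -1.44 (adjusted p = 1.43e-08). IFIT2 differed by -1.03 and OAS2 by 0.63 at 0 h. RSAD2 was likewise lower in untreated KO libraries without passing the test, while IFIT5 differed by 0.07 (adjusted p = 0.721).

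Of 10 tested genes of interferon signalling, 7 rose and 1 fell at 12 h in WT cells (8 and 1 after scaling); the KO counts were 7 and 2 (7 and 1 after scaling). USP18, which damps the receptor, rose by 5.07 and the transcription factor IRF7 by 4.26 in WT. The receptor chain IFNAR2 fell by 0.50. IRF7 was higher in KO at 12 h by 0.86 (adjusted p = 0.000263) and at 48 h by 0.63 (adjusted p = 0.00352). In untreated KO cells USP18 was higher by 0.32 and IRF9 differed by -0.53. The 48 h response of USP18 was called smaller in KO, by -0.38 (adjusted p = 0.0426), and was not called after scaling. Its untreated level enters that value, and at 48 h the genotypes differed by -0.07 (adjusted p = 0.558) in limma.

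The next list holds the nucleotide pathway that feeds CMPK2 and viperin. Of 20 tested genes for CTP and deoxynucleotide synthesis, 4 rose and 5 fell at 12 h in WT cells (6 and 2 after scaling), against 4 and 7 in KO cells (6 and 3 after scaling). These counts lie near the shares over all genes, and the median change in WT was -0.0019, so they are not read as a result about the pathway. The largest rise was that of SAMHD1, which hydrolyses deoxynucleotides and is also in the effector list, at 4.03. TYMS differed by -0.13 between genotypes at 48 h, and CTPS2 (0.27) and DCK (0.22) at 0 h were called only before scaling. RRM2, a ribonucleotide reductase subunit, followed at 0.27 and the UMP-making enzyme UMPS at 0.25. RRM2B, the alternative reductase subunit, was lower by 0.54 and the CTP synthase CTPS2 changed by -0.35. CMPK1, the cytosolic relative of CMPK2, changed by -0.05 in WT (adjusted p = 0.485) and -0.07 in KO (adjusted p = 0.316).

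Genes around PNPT1 in mitochondrial RNA turnover were read the same way, and their counts as deposited too lie near the shares over all genes. At 12 h in WT 3 of 12 rose and 2 fell (6 and 2 after scaling), and in KO 2 rose and 3 fell (6 and 2 after scaling). After scaling, 2895 of all genes tested were called higher in WT and 3155 in KO, smaller shares than 6 of 12. That excess was not tested. TFAM, which packages mitochondrial DNA, rose by 0.27, the helicase TWNK by 0.23 and FASTKD2 by 0.22, while ENDOG fell by 0.41 and the oligoribonuclease REXO2 by 0.21. SUPV3L1, the helicase partner of PNPT1, changed by 0.06 (adjusted p = 0.525). Among 10 reported partners of viperin and genes that insert iron-sulphur clusters, 1 rose and 3 fell in WT (3 and 2 after scaling). In KO 1 rose and 4 fell (2 and 4 after scaling). The counts as deposited lie near the shares over all genes, 15.1% higher and 29.8% lower in WT and 16.0% and 32.8% in KO. They are not read as a result about this list. In WT IRAK1, a kinase of innate signalling, rose by 0.23, while MMS19 fell by 0.32 and HADHB by 0.24. CIAO1, which loads the cluster into viperin, changed by -0.02 (adjusted p = 0.770).

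Among 8 tested close relatives of the effectors, 6 rose and 0 fell at 12 h in WT, against 15.1% and 29.8% of all genes. PLSCR4 rose by 0.64, ISG20L2 by 0.41 and AEN by 0.33, against 3.27 for PLSCR1 and 3.81 for ISG20. PLSCR4 was low, with means of 1.65 RPKM untreated and 3.11 RPKM at 12 h in WT. In KO it changed by 0.14 (adjusted p = 0.454 in limma). In KO 5 of the 8 rose and 0 fell. At 48 h 1 of 8 was called higher than untreated in WT and 2 of 8 in KO, against 6.52% and 5.90% of all genes.

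Across the 18 libraries each effector was matched to the 2 other genes whose log2(RPKM + 1) followed it most closely. These correlations mostly describe the step between untreated and treated libraries and carry no test. CMPK2 was closest to IFI44L (r = 0.9992) and IFI6 (r = 0.9981), which were likewise higher at 48 h than at 12 h. The WT mean of IFI44L went from 128 to 180 RPKM between these times, and that of IFI6 from 686 to 1280.4 RPKM. ISG20 was closest to the chemokine gene CXCL11 (r = 0.9908), which fell from a mean of 338 to 15.2 RPKM in WT, and to the signalling adaptor MYD88 (r = 0.9907), which was at 55.0 and 22.3 RPKM.

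RSAD2 followed TRIM22 (r = 0.9977) and SAMHD1 (r = 0.9976), and PLSCR1 followed EIF2AK2 (r = 0.9993) and DTX3L (r = 0.9989). SAMD9 was matched to APOL6 (r = 0.9969) and LAMP3 (r = 0.9968). SAMD9L was matched to IFIH1 (r = 0.9973) and USP18 (r = 0.9972), and PNPT1 to PARP14 (r = 0.9957) and TNFSF10 (r = 0.9956). Within the 12 treated libraries CMPK2 stood apart from the other 6 effectors, with r from -0.67 to -0.78, while pairs among those 6 had r from 0.936 to 0.990. These points share libraries and the 2 treatment times.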

How the data were processed

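Stranded mRNA libraries from NIKS cells were prepared, per the labels' protocols. The authors deposited 1 table of RPKM values for 18 libraries and 16472 genes. The submitters' processing notes name cutadapt, STAR 2.6.1, RSEM 1.3.0, limma 3.50.3 and hg19, without role or order; the annotation and the reads behind each library's total are not given in the sources used here. Symbols were matched by Ensembl ID.

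The deposited RPKM values are not counts, so log2(RPKM + 1) was fitted with limma 3.58.1 in R 4.3.3 (6 group means, 18 libraries, variance trend). A gene was tested if 3 or more libraries reached 1 RPKM, and each comparison was adjusted over its 13280 genes by the Benjamini-Hochberg method, with a threshold of 0.05. The model was tested on simulated data. P-values measure the spread between these libraries. Replicates correlated at r = 0.985 to 0.989 across genes, and no pair of libraries held identical values throughout.

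Pair ratios were tested by two-sided exact permutation over 400 assignments. Promoter sequences come from RefSeq (GRCh38.p14) and were not joined to hg19 coordinates. Alternatives were a pseudocount of 0.1, no filter, median-of-ratios scaling, a filter on mean RPKM (5 or more), only the compared libraries, no variance trend, a replicate block and leaving out each library; a fit on the 12 treated libraries was added after seeing the data. All members were named, and from each list up to 3 called genes with the largest rise and 2 with the largest fall at 12 h in WT, and up to 2 each way for KO against WT. A few other list genes (CMPK1, CIAO1, SUPV3L1) were named after their values were seen. The members and lists were chosen with earlier results of these data known. A result that names a withheld item is not reported here.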

Additional observations from a re-analysis of the deposited data

How the results depend on the processing

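The 84 member results kept direction and side of the threshold in 2094 of 2135 alternative values; 10 lost the threshold (all CMPK2 from 12 to 48 h), 11 gained it and 20 changed sign, all of them differences between genotypes that had not passed. By setting, a pseudocount of 0.1 turned CMPK2's interactions to 0.11 at 12 h and 0.13 at 48 h and the SAMD9L to SAMD9 ratio over time to -0.0078, and called 1 member between untreated genotypes. Median-of-ratios scaling turned RSAD2's 48 h interaction to -0.0051. Only the compared libraries gave 945 genes for KO 48 h against 0 h (1770 over all libraries), 306, 213 and 250 for KO against WT at 0, 12 and 48 h (650, 481 and 556), and 6, 3 and 1 for the interactions (10, 11 and 0), with 1 member called at 12 h and 1 in the time interaction. No variance trend called 1 gene in the time interaction. The 12 treated libraries called 1 member at 12 h, 2 at 48 h, and 1 member and 1 gene in the time interaction. These fits use fewer samples, apart from the pseudocount, scaling and trend, for which the cause was not tested.

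Leaving out each library gave 1160 to 1775 genes for KO 48 h against 0 h, and 381 to 660, 304 to 494 and 375 to 551 for KO against WT at 0, 12 and 48 h, with 0 to 1, 0 to 1 and 1 to 2 members. The interactions held 6 to 11, 7 to 11 and 0 to 1 genes, with 0 to 1 members in the last. KO minus WT ran from -0.034 to 0.024 for SAMD9 and -0.025 to 0.10 for SAMD9L at 0 h, -0.0038 to 0.056 for SAMD9 at 12 h and -0.031 to 0.019 for PNPT1 at 48 h. Interactions ran from -0.16 to 0.015 (CMPK2, 12 h), -0.029 to 0.29 (ISG20, 12 h), -0.15 to 0.13 (RSAD2, 48 h), -0.096 to 0.00058 (CMPK2, 48 h) and -0.073 to 0.10 (CMPK2, time). Counts moved over 1.5 times without KO 0 h replicate 1 for KO 48 h against 0 h (1160), without WT 0 h replicates 2 or 3 or KO 0 h replicates 1 or 2 at 0 h (381, 415, 401 and 394), without WT 12 h replicates 1 or 3 or KO 12 h replicate 1 at 12 h (304, 319 and 313), and without WT 48 h replicate 2 for the 48 h interaction (7). The 12 h interaction fell to 6 without WT 48 h replicates 2 or 3, KO 0 h replicates 1 or 2 or KO 12 h replicate 3.

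Replicate numbers are labelled, and the deviations of libraries from their group means were correlated between groups. The median r was -0.013 over 45 same-numbered pairs (2 over 0.1) and 0.0084 over 90 other pairs (2 over 0.1). Whether same-numbered libraries share a batch was not tested. With a replicate block the KO against WT counts were 533, 394 and 465 genes and 0, 0 and 1 members.

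Read totals are unknown, no counting intervals are given, and untreated RSAD2, CMPK2 and SAMD9L rest on very low values.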
